A study of Drosophila melanogaster with 2 samples.

Results

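Binding of the CG32532 protein was examined at 10 fly genes with roles in glia and in the blood-brain barrier, namely moody, Gs2, loco, Gli, nrv2, Eaat1, drpr, wrapper, gcm and gcm2. They are 10 of 13968 protein-coding genes in the annotation and were listed by name. The assay was ChIP-seq, the sequencing of sonicated DNA fragments (200 to 800 bp) that an antibody pulls down with a protein. Whole Drosophila melanogaster embryos aged 8 to 24 h carried a transgene for CG32532 fused to eGFP, and the antibody was against GFP. The age is that of the source description, and a separate age field in the labels differs from it and was not used. Both biological replicates of this 1 group carried the tagged transgene, and with n = 2 and no second condition no test between conditions could be made. A control experiment that the labels name was not analysed here. Both replicates were made from whole embryos, so the cells in which a site was bound cannot be told apart. The values are peak lists on assembly dm6, and sequencing depth is unknown because they give no numbers of reads.

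Glia wrap neurons and axons, clear cell debris, take up transmitter and seal the fly nervous system from the potassium-rich blood. The seal is made by subperineurial glia, flat cells joined by septate junctions, in which the receptor Moody and the G protein regulator Loco act. The transcription factor Gcm starts the glial fate in most lateral glia of the embryo, and gcm2 is its neighbour and paralog. Glutamate from synapses is taken up by the transporter Eaat1 and turned into glutamine by glutamine synthetases such as Gs2.

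A peak counted as replicated if it was in the conservative series-level set of 5325 peaks, which is filtered on the irreproducible discovery rate (IDR), a measure of how well a peak's rank repeats between lists. Each peak went to the protein-coding gene whose transcription start site (TSS) was nearest to its summit, and a gene with at least 1 such peak is described as called. Of the 10 glial genes 6 were called, and the background was 3451 of all 13968 protein-coding genes (24.7%). The 10 genes were chosen with earlier results of these data known. The called genes were moody, Gs2, loco, Gli, nrv2 and drpr. Eaat1, wrapper, gcm and gcm2 were not called. Stretches nearest to a gene's TSS were longer at the 10 glial genes (median 6.15 kb) than over all protein-coding genes (4.25 kb), and longer at called genes (6.48 kb) than at genes not called (3.78 kb). The part of this length in the count was not tested.

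Together the 6 genes held 8 replicated peaks, with 2 each at loco and Gli and 1 each at moody, Gs2, nrv2 and drpr. Of these 8 summits, 5 lay within 500 bp of a TSS and the other 3 in introns. A summit within 500 bp of a TSS was put in that class whether or not it lay in an exon. Over all replicated peaks 56.1% of summits lay within 500 bp of a TSS, 30.1% in introns and 10.9% between genes. Peak strength was taken as the deposited signal value in each replicate's own ranked list and divided by that replicate's median over the replicated peaks, which was 67.7 in replicate 1 and 116 in replicate 2. The resulting multiple is 1 for a peak of middle strength. The median of the strongest peak was 1.21 ± 0.028 times the median peak over the 6 called glial genes and 1.19 ± 0.0030 times over all called genes (SD of the 2 replicates' medians).

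**Figure D1:**
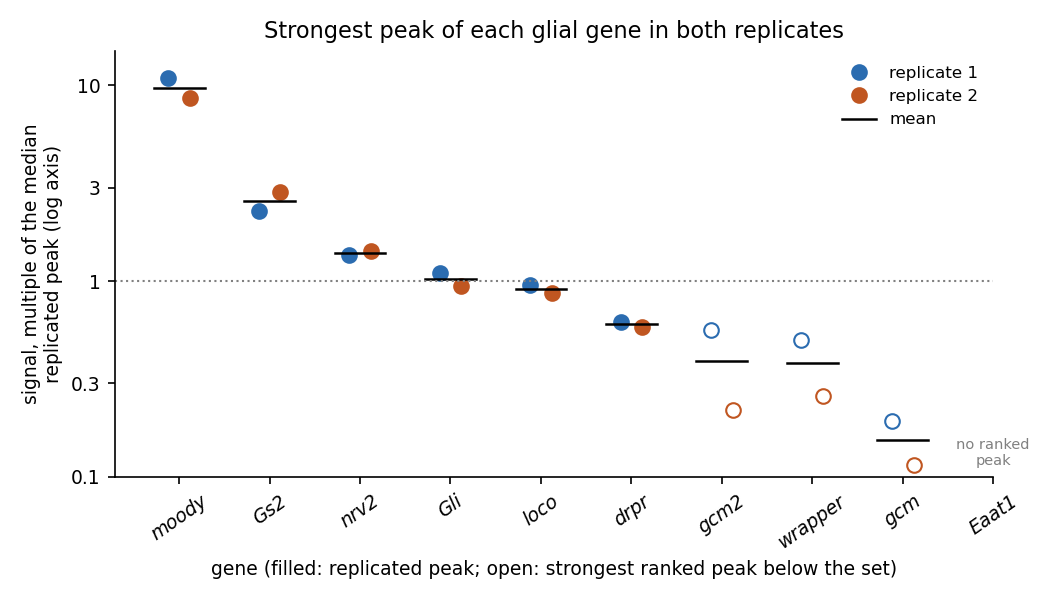
Signal of the strongest peak of each gene as a multiple of the median replicated peak (log axis), with 1 point per replicate and a bar for the mean. Filled points are replicated peaks and open points are the strongest peaks of the series-level ranked list at genes that were not called. moody stands at 9.72 times the median, and Eaat1 has no peak in that list.

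The strongest of these peaks was at moody (FBgn0025631, X, 2044292 to 2050120, minus strand), which encodes a G protein-coupled receptor of the barrier-forming glia. Its signal was 734 in replicate 1 and 997 in replicate 2, which is 10.8 and 8.59 times the median peak (9.72 ± 1.59, SD, n = 2). Both values lay above those of every other peak at the 10 genes in the same replicate. The peak (X, 2050128 to 2050455) had its summit at 2050286, 166 bp upstream of the distal of 2 annotated starts of moody and 1891 bp upstream of the proximal one. The distal start has 2 transcripts and the proximal one 4. The peak ranked 50 of 5325 replicated peaks by pooled signal, and 36 and 67 in the full ranked lists of replicates 1 and 2. moody is nested in the gene CG4313 on the opposite strand, whose nearest start lay 2398 bp from the summit. The 200 bp around the summit held no annotated exon, and 55.5% of them were G or C, against a median of 37.0% over all replicated windows (middle range 32.0 to 44.5%).

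The summit window of moody, that of the intronic Gs2 peak and that of the stronger loco peak are shown because they are, in this order, the window of the strongest peak, the one with CAGCTG beside its summit and the only one of the 8 with the homeodomain core TAATTA. Each reads 5′ to 3′ along the strand of its gene, from the RefSeq copy of the dm6 assembly, with matches to the searched motifs in capitals on either strand. The moody window is chrX:2050186-2050385 (minus strand), the Gs2 window chrX:11423307-11423506 (plus strand) and the loco window chr3R:22624844-22625043 (minus strand).
moody: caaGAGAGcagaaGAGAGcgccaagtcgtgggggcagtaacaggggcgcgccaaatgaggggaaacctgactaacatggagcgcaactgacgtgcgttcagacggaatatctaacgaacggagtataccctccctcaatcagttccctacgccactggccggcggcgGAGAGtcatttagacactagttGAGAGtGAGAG
Gs2: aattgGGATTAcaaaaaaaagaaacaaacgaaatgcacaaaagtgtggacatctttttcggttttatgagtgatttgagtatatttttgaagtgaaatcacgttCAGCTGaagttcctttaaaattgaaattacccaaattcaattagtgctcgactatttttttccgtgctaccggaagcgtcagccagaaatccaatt
loco: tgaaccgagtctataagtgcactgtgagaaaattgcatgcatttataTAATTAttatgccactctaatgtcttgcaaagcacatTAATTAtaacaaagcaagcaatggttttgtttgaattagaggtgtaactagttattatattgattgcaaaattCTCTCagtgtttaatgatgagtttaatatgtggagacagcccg

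Matches were counted in 200 bp windows around all 8 glial summits, for 9 motifs on both strands, and each match is a description of these letters only. GAGAG stood in 3 of the 8 windows (moody, loco and Gli) and in 25.2% of all replicated windows. In the moody window its 5 matches lay 68 to 96 bp from the summit. CAGCTG stood in the Gs2 window alone, starting 4 bp downstream of the summit, and in 9.63% of all replicated windows. The Gs2 window also held TAATCC 95 bp upstream of the summit, a match found in 5.58% of all replicated windows. TAATTA stood in 1 of the 8 windows, that of the stronger loco peak, with copies starting 15 and 52 bp upstream of the summit. Of all replicated windows 15.2% held TAATTA. The promoter element GGTCACACT stood in the drpr window and in 2.01% of all replicated windows. A TAAT palindrome with 2 bases between its arms stood in the window of the weaker Gli peak and in 2.39% of all replicated windows. TATCGATA, the Gcm-type site ATGCGGGT and a TAAT palindrome with 3 bases between its arms stood in 0 of the 8 windows, and over all replicated windows in 4.51%, 0.225% and 2.61%.

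Gs2 (FBgn0001145, X, 11422832 to 11430197, plus strand), a glutamine synthetase gene, had the next strongest peak. Its signal was 155 in replicate 1 and 332 in replicate 2, or 2.29 and 2.86 times the median peak (2.58 ± 0.40, SD, n = 2). The replicates' ranges of moody and Gs2 did not overlap. The peak (X, 11423262 to 11423500) lay in the first intron between both annotated starts, 575 bp downstream of the distal start with 2 transcripts and 550 bp upstream of the proximal one with 4 transcripts. It ranked 605 of 5325, and the next protein-coding start of another gene lay 5985 bp away.

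nrv2 (FBgn0015777, 2L, 6789770 to 6798862, minus strand) encodes a beta subunit of the sodium-potassium pump that is also needed for septate junctions. Its peak (2L, 6797469 to 6797828, summit 6797649) had a signal of 91.5 in replicate 1 and 166 in replicate 2. These are 1.35 and 1.43 times the median peak (1.39 ± 0.053, SD, n = 2), the smallest ratio between replicates among the 8 peaks. The summit lay in an intron, 545 bp downstream of the second of 4 annotated starts and 866 bp upstream of the third. Neither the most distal start nor the most proximal one, which 3 transcripts use, was the nearest.

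Gli (FBgn0001987, 2L, 15756002 to 15762758, minus strand) encodes Gliotactin, a protein of the junctions where 3 cells meet. It had 2 peaks, at its distal and its proximal start. The stronger (summit 15762710) lay 48 bp downstream of the distal start, which 4 of 5 transcripts use, with signals of 74.8 in replicate 1 and 110 in replicate 2 (1.10 and 0.95 times the median peak, 1.03 ± 0.11, SD, n = 2). The other (summit 15762055) lay 353 bp downstream of the proximal start and reached 52.3 in replicate 1 and 112 in replicate 2 (0.77 and 0.97 times, 0.87 ± 0.14). The first was higher in replicate 1 and the other in replicate 2 by a small margin, so their order was not stable across replicates. Their windows differed in base composition, with 53.5% G or C at the first and 26.0% at the other, the highest but one and the lowest of the 8 windows.

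loco (FBgn0020278, 3R, 22619968 to 22639387, minus strand) encodes a regulator of G protein signalling that acts with Moody. It is the longest of the 10 genes and has 4 annotated starts, and it held 2 peaks near the median strength or below. The stronger (summit 22624944) lay in an intron, 1690 bp downstream of the most proximal start, with signals of 64.7 in replicate 1 and 100.4 in replicate 2 (0.96 and 0.86 times the median peak, 0.91 ± 0.064, SD, n = 2). It was in the own thresholded set of replicate 2 and not in that of replicate 1, where its IDR score was 504, below the 830 that is the lowest score in the replicated set. The weaker (summit 22636694) lay 238 bp upstream of the second start, with signals of 58.1 in replicate 1 and 59.5 in replicate 2 (0.86 and 0.51 times, 0.69 ± 0.24). It was in the own set of replicate 1 and not in that of replicate 2, where its IDR score was 741. The replicates therefore differed in which loco peak passed on its own, and the weaker peak had the largest gap between replicates of all 8 (1.67-fold).

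drpr (FBgn0027594, 3L, 1715595 to 1731107, minus strand) encodes Draper, the receptor with which glia recognise and engulf debris. Its peak (3L, 1730859 to 1731218, summit 1731039) lay 68 bp downstream of its only annotated start, where the gene also overlaps an exon of the gene Oseg4 on the same strand. The signal was 42.0 in replicate 1 and 67.6 in replicate 2, or 0.62 and 0.58 times the median peak (0.60 ± 0.027, SD, n = 2). This was the lowest of the called glial genes. The peak had an IDR score of 969 in the replicated set. It was in neither replicate's own set, with scores of 53 and 235, nor in the optimal series-level set. Of all replicated peaks 7.57% were in neither own set, and 2.91% were outside the optimal set.

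**Figure D2:**
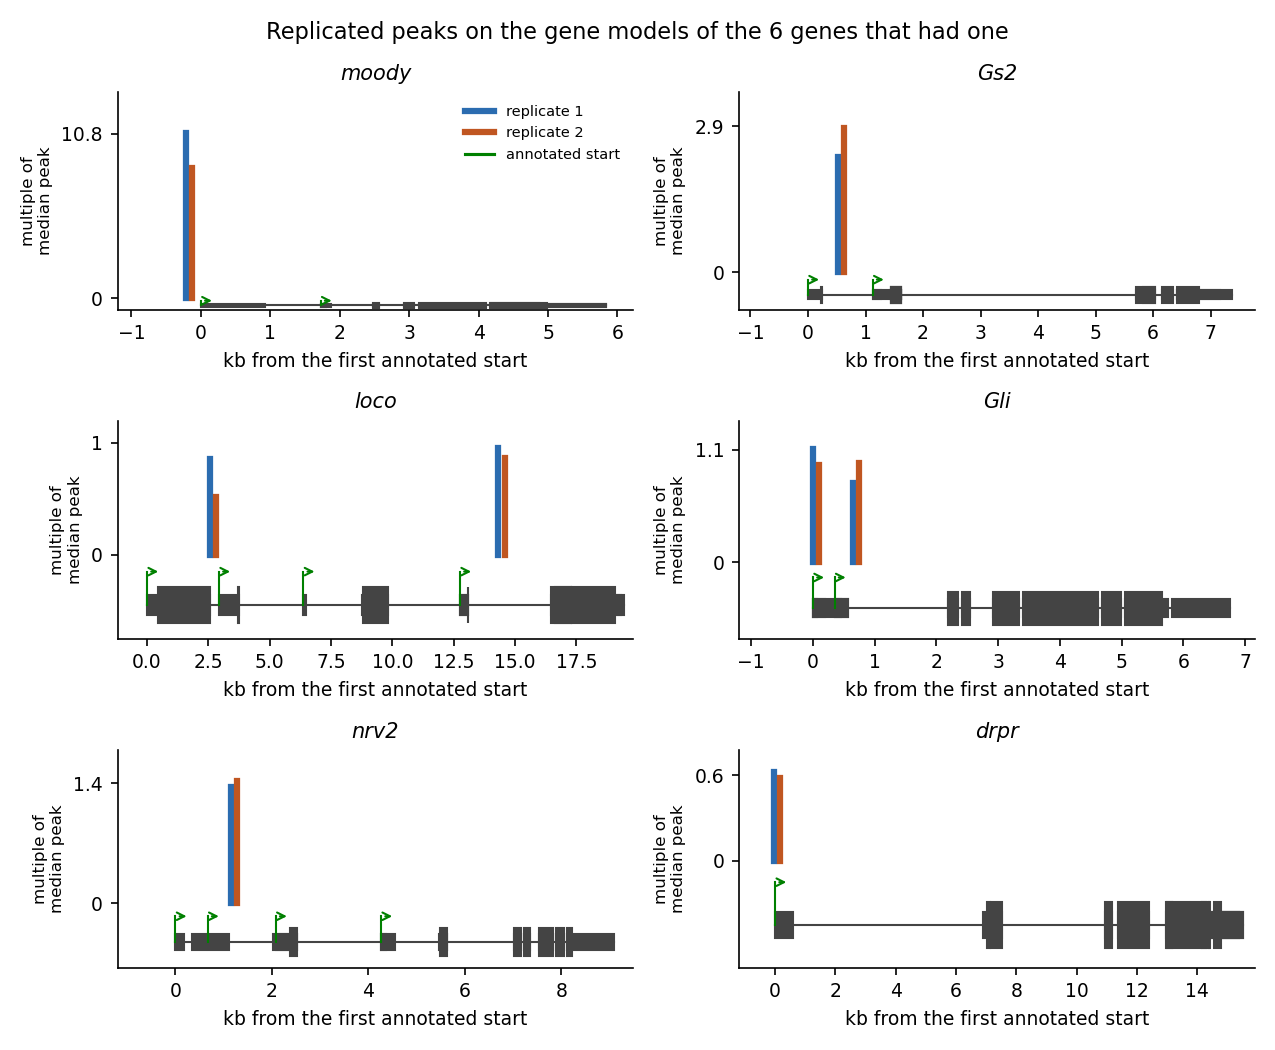
Gene models of the 6 called genes, drawn in the direction of transcription, with distance in kb from the first annotated start. Bars at each summit give the signal in both replicates as a multiple of the median peak, on an axis of its own in each panel. All summits lie within 2 kb downstream or 1 kb upstream of an annotated start (arrows), and moody, Gs2, nrv2, Gli and loco have more than 1 start.

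The order of the 6 called genes by strongest peak was moody, Gs2, nrv2, Gli, loco and drpr. The replicates' ranges of neighbours in this order did not overlap, except those of Gli (0.95 to 1.10 times) and loco (0.86 to 0.96 times), which met. By mean multiple moody ranked 45 and Gs2 601, so 1.28% and 17.4% of the 3451 called genes had a stronger peak, where genes without a value in both replicates counted as not stronger. For nrv2 this share was 41.5%, for Gli 57.6%, for loco 64.6% and for drpr 91.8%. The middle range of all called genes ran from 0.79 to 2.06 times the median peak, and of the 6 only moody and Gs2 lay above it and drpr below it.

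**Figure D3:**
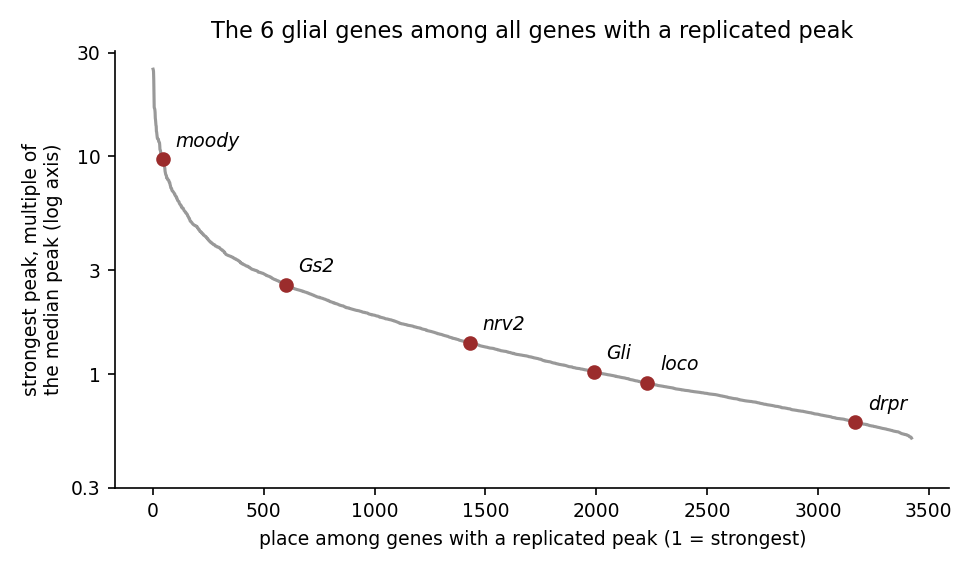
Strongest replicated peak of the 3423 called genes with a value in both replicates, as a multiple of the median peak (log axis, mean of both replicates), ordered from strongest to weakest. The 6 glial genes are spread from rank 45 (moody) to rank 3169 (drpr).

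The genes with the most similar replicate values were found by distance between the 2 log2 multiples, over 3423 called genes with a value in both replicates. Nearest to moody were Lamtor3 (9.98 ± 1.11 times the median peak), sp3 (9.30 ± 1.16) and CG16753 (10.5 ± 1.62). Nearest to Gs2 were side-IV (2.59 ± 0.38), Pka-C1 (2.57 ± 0.37) and sky (2.61 ± 0.41). With 2 replicates this likeness is only of peak height.

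Values of the 2 replicates were compared peak by peak. The multiple was higher in replicate 1 at 5 of the 8 peaks and in replicate 2 at 3. The median size of the log2 ratio between replicates was 0.27 over the 8 peaks and 0.33 over the 5279 peaks of the replicated set with a value in each replicate. Of the 8 peaks 4 were in both replicates' own sets, namely those of moody, Gs2 and nrv2 and the stronger Gli peak, and 63.0% of all replicated peaks were. In replicate 1's own set 5 of the 10 genes were called, with a background of 20.5%, and in that of replicate 2 also 5, with a background of 28.7%. The optimal series-level set called 5 as well, with a background of 31.5%. In each of these 3 sets the gene lost was drpr.

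**Figure D4:**
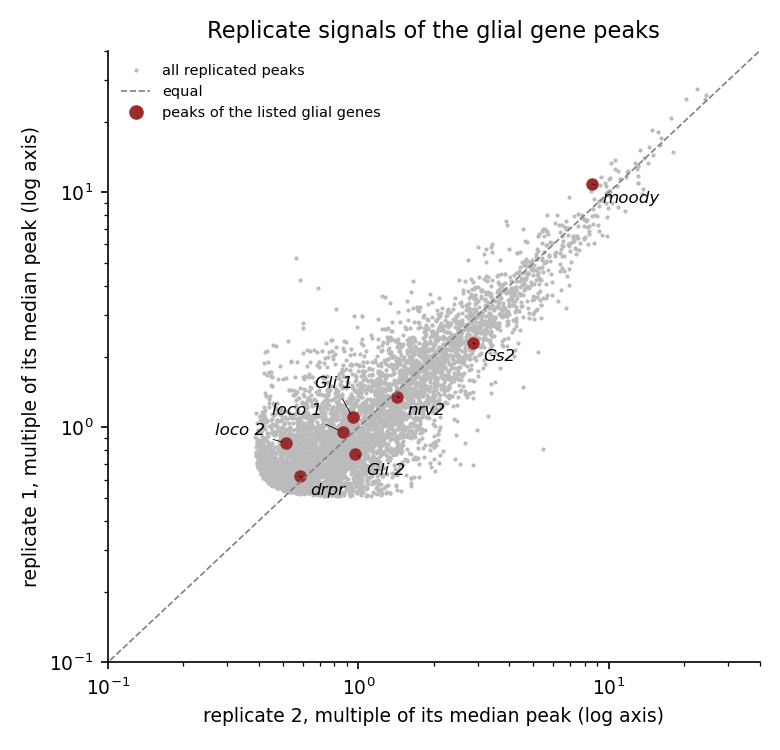
Signal in replicate 1 (vertical axis) against replicate 2 (horizontal axis) for the 8 glial peaks (red) and all replicated peaks (grey), each as a multiple of that replicate's median, on log axes. The dashed line marks equal multiples. The glial peaks lie within the cloud, with moody near its top and the weaker loco peak (loco 2) is the glial peak farthest from the line.

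Other rules for tying peaks to genes gave the same count. With only summits within 1000 bp of the nearest TSS, 6 of the 10 genes were called against a background of 19.7%. With summits inside a gene or up to 1000 bp upstream of it, again 6 were called, against a background of 30.2%.

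For the 4 genes that were not called, values come from the ranked lists, which also hold peaks that did not pass the IDR. wrapper (FBgn0025878, 2R, 22379637 to 22382675, plus strand), an immunoglobulin-family protein of midline glia, had its strongest ranked peak 377 bp upstream of its start with 0.50 times the median peak in replicate 1 and 0.26 in replicate 2 (0.38 ± 0.17, SD, n = 2). Its IDR score was 462. The nearest replicated summit lay 3411 bp from its start and belonged to the next gene, CG13506. For gcm2 (FBgn0019809, 2L, 9608562 to 9612706, plus strand) the strongest ranked peak lay 2841 bp upstream with 0.56 times in replicate 1 and 0.22 in replicate 2 (0.39 ± 0.24) and an IDR score of 68. The means of wrapper and gcm2 lay inside the middle range of genes without a replicated peak (0.25 to 0.40 times, median 0.32, over 6464 genes with a value in both replicates), and 30.3% of these genes had a higher value than wrapper and 27.5% a higher value than gcm2. The nearest replicated summit to gcm2 lay 4883 bp from its start and belonged to Trx2.

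gcm (FBgn0014179, 2L, 9579498 to 9581745, minus strand) had the weakest ranked peak of the glial genes, 1049 bp into the gene and in a coding exon. It stood at 0.19 times the median peak in replicate 1 and 0.12 in replicate 2 (0.15 ± 0.054, SD, n = 2). These are the strongest overlapping peaks of each replicate. Of the 6464 genes without a replicated peak but with a value in both replicates, 97.4% had a higher value. Among peaks whose own summit was nearest to gcm, replicate 1 held a single one at 0.085 times, 1047 bp into the gene, and the strongest of replicate 2 stood at 0.18 times, 30 bp upstream of the start, so the order of the replicates turned with the way of matching. The nearest replicated summit, 4895 bp from the start of gcm, belonged to Mtpalpha. Eaat1 (FBgn0026439, 2L, 9333567 to 9341925, plus strand) had no peak in the series-level ranked list. Replicate 1's ranked list held 11 peaks nearest to Eaat1, the strongest at 0.28 times the median peak, and that of replicate 2 held 0. The nearest replicated summit lay 49736 bp from an Eaat1 start and belonged to Aldh. Low depth and lack of binding cannot be told apart at these genes from peak lists alone.

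A wider set of 67 genes in 7 lists by role in glia put the 10 genes in their pathways. Membership is by role and does not mean that a gene acts only in glia. Of the 57 genes that are not among the 10, 33 were called, against the background of 24.7%. The lists were chosen with earlier results of these data known. Their strongest peaks had a median of 0.84 times the median peak, lower than the 1.19 times of all called genes. These 57 genes had long stretches nearest to their TSS (median 10.3 kb, against 4.25 kb over all protein-coding genes), and the part of this length in their count was not tested. Of the 39 called genes of the 67, 18 had the summit of their strongest peak within 500 bp of a TSS, and 66.1% of all called genes did. With only summits within 1000 bp of the nearest TSS, 29 of the 67 were called, beside 19.7% of all protein-coding genes.

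Each list is set beside the 24.7% of all protein-coding genes that were called. Of genes for barrier receptor signalling 7 of 7 were called, moody, loco and 5 partners that encode G protein subunits and a kinase. After moody the strongest were Pka-C1, the catalytic subunit of protein kinase A, with 2.31 times the median peak in replicate 1 and 2.84 in replicate 2 and 4 peaks in all, and loco. Replicate 1's own set held 6 of the 7 (20.5% of all protein-coding genes) and that of replicate 2 held 7 (28.7%). Of septate junction genes 17 of 27 were called. The strongest were bark (2.79 and 3.34 times in replicates 1 and 2), a tricellular junction gene, dlg1 (3.05 and 2.99 times), a scaffold protein with 7 peaks, and Tsf2 (2.95 and 2.80 times), a transferrin. In replicate 1's own set 10 of these 27 genes were called, beside 20.5% of all genes, and in that of replicate 2 it was 17, beside 28.7%.

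The other roles have short lists of 5 to 9 genes, and the share called ran from 33.3% to 60%, against 63.0% of septate junction genes. Of barrier transporter genes 3 of 5 were called, with the sugar transporter gene Tret1-1 the strongest at 3.73 and 3.90 times in replicates 1 and 2, before the lipoprotein receptor genes LRP1 (0.66 ± 0.29, SD, n = 2) and mgl (0.63 ± 0.065). Of transmitter genes 3 of 7 were called, Gs2 followed by Gs1 (0.79 ± 0.099), the other glutamine synthetase gene, and Eaat2 (0.75 ± 0.17), a second excitatory amino acid transporter gene. Of engulfment genes 4 of 9 were called, drpr and ced-6 (0.90 ± 0.0032), mbc (0.64 ± 0.096) and NimC4 (0.62 ± 0.13), whose summit lay 22727 bp from its TSS. Of axon ensheathment and growth factor genes 2 of 6 were called, ths (1.98 ± 0.043), an FGF gene, and vn (0.65 ± 0.057), an EGF-receptor ligand gene. Of glial fate transcription factor genes 3 of 6 were called, pnt with 8 peaks (strongest 1.79 ± 0.35), sim (1.01 ± 0.41) and ttk (0.85 ± 0.083). The strongest summits of mgl, pnt, vn and sim also lay far from their TSS (12071, 10479, 7124 and 6088 bp), as did that of Pka-C1 (6172 bp).

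**Figure D5:**
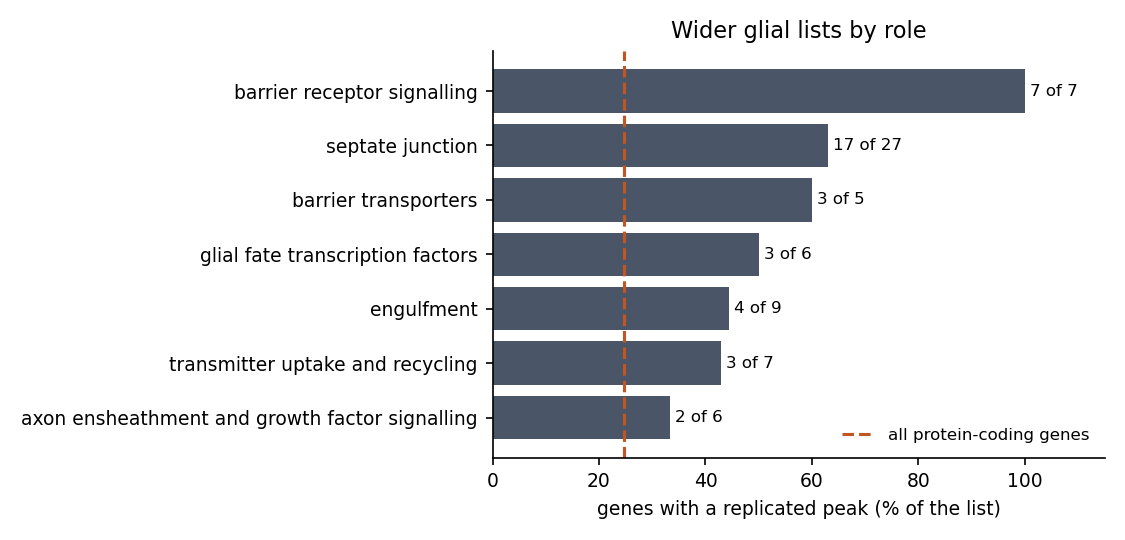
Share of genes with a replicated peak in each wider glial list, with the count beside each bar, and the dashed line at the 24.7% of all protein-coding genes. The receptor signalling list has 7 of 7 genes, and the ensheathment list lies nearest to the line with 2 of 6.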

How the data were processed

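Peak lists on dm6 from 2 ChIP-seq replicates of whole embryos were used as deposited. Per the deposited notes, peaks were ranked by IDR. Names and versions of the aligner and caller were not given in the sources used here. In these lists, the score deposited by the authors is the IDR on a scale up to 1000, higher being more reproducible, and 830 is the lowest score in the replicated set. The deposited signal value is the authors' strength of a peak, on a scale that is not stated, and it was used only within a list or as a multiple of the replicate's median over the replicated peaks. Series-level lists hold values of both replicates pooled by the authors. Gene models and starts are those of Ensembl release 115, and windows were read from the RefSeq genome. The 10 other per-peak columns of a ranked list and the second series-level ranked list were not used. A replicate's signal was that of the strongest peak overlapping by at least 1 bp in its ranked list. Of summits at equal distance from starts of several genes (106 of 5325) each went to the gene with the lower identifier, and none of these touched a glial peak. Computation used Python 3.11.15 and pandas 2.3.3, and the assignment and matching were tested on simulated data.

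The genes named are the 10 listed genes, up to 3 genes with the strongest peak in each wider list and the 3 genes most alike to each of the 2 strongest. The members and lists were chosen with earlier results of these data known, and 4 list symbols were brought to current names. No test was made, since there is 1 group, and alternatives in peak set, distance, assignment and scaling are given in the closing section.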

Additional observations from a re-analysis of the deposited data

How the results depend on the processing

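The count of called glial genes (6 of 10, 24.7% of all genes) ran from 4 to 6 over 10 alternatives. It was 4 with peaks held by both replicates' own sets (17.9% of all genes called) and 4 with the stronger 50% of peaks by pooled signal (14.96%). It was 5 without replicate 1 (28.7%) and 5 without replicate 2 (20.5%), which are the counts of the other replicate's own set. The 8 peaks became 4 with peaks in both own sets and 4 with the stronger 50% of peaks by pooled signal, and 5 to 6 with either replicate left out. The 39 called genes of the 67 became 24 (17.9% of all genes called) and 18 (14.96%) under the same restrictions, and 28 (20.5%) to 43 (28.7%) with either replicate left out. The median strongest peak moved to 1.24 times when at least 50% of a replicated peak had to be covered, a shift larger than the SD between replicates. The dividing median over the replicated peaks was recomputed under this rule. The multiples of all 6 genes rose by a similar share, with moody at 9.98 and drpr at 0.62 times. With the multiples of 1 replicate alone, over the same 6 genes, the median strongest peak was 1.19 times (replicate 2) or 1.23 times (replicate 1). TAATTA stood in 0 to 1 glial windows with either replicate left out. Peaks in both own sets and the stronger 50% are parts of the replicated set, so by construction their counts could not rise. Without replicate 1 the count of the 10 genes fell to 5 although more of all genes were called (28.7% against 24.7%). The gene lost was drpr, and why its peak did not pass there was not tested. No paired analysis was possible because there is only 1 group. The precision rests on 2 replicates, and without read counts no counting error can be given.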

Other observations

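In the optimal set 45 of the 67 wider glial genes had a nearest peak, beside 31.5% of all protein-coding genes. Some of the genes that were not called in the replicated set had peaks there, and 3 of them are named here after their values were seen. The pan-glial homeodomain gene repo had a ranked peak 144 bp upstream of its TSS (3R, summit 18236048), with 0.83 times the median peak in replicate 1 and 0.33 in replicate 2. The peak passed in the own set of replicate 1 and in the optimal set, and its IDR score in the series-level ranked list was 678. The reverse held at the FGF gene pyr (0.35 times in replicate 1 and 0.71 in replicate 2) and at Egfr (0.34 and 0.72 times), whose peaks passed in the own set of replicate 2 and in the optimal set. Their IDR scores in the series-level ranked list were 196 at pyr and 152 at Egfr, and the median score of the best ranked peak was 154 over all genes that were not called. Of the 28 list genes that were not called, 8 had no peak in the series-level ranked list. Over all 13968 protein-coding genes, 3451 were called, and 7896 were not called but had a peak in that list.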
